A study of Mus musculus with 9 samples.

Results

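Axon guidance genes were examined in N2a, a neuroblastoma line from mouse also called Neuro-2a, in which Arf1, a small GTPase of Golgi vesicle transport, had been knocked down. The members are the 174 genes of 21899 in the deposited table whose pathway annotation holds the entry Axon guidance, after 7 further genes named Pik3 or Itg were left out. RNA was sequenced with a control hairpin against luciferase (shlucif) or after knockdown of Arf1 by either of 2 hairpins, named shArf1-1 and shArf1-2. Each hairpin had 3 libraries, and the labels name no drug treatment in any group. The hairpins were carried on lentiviral plasmids with a puromycin marker, every group is the same cell line, and nothing in the labels says whether the 3 libraries of a hairpin came from separate infections, so that p-values measure the spread between these libraries only. The 6 libraries with either Arf1 hairpin are called Arf1-deficient.

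Axon guidance is the steering of a growing axon by cues that attract or repel its growth cone. The best known cues form 4 ligand-receptor families, the Slits with Robo receptors, the netrins with Dcc, neogenin and Unc5 receptors, the semaphorins with plexins and neuropilins, and the ephrins with Eph receptors. Below these receptors, small GTPases, kinases and calcium-dependent enzymes act on actin and microtubules in the growth cone. Many of the cues and receptors are also used outside the nervous system, in vessels, immune cells and tumours.

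The hairpins differ in the Arf1 sequence they match, and their targets are shown because each comparison below rests on them. Both lie in the coding sequence of Arf1, read from the minus strand. In GRCm38 the first is in exon 3 (chromosome 11, 59213222 to 59213242) and the second in exon 2 (chromosome 11, 59213386 to 59213406). Written 5′ to 3′ in lower case, they are the following 21 bases.
shArf1-1: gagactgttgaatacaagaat
shArf1-2: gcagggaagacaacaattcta
No GENCODE transcript of an axon guidance member holds either sequence (0 of 174 genes). Outside Arf1, exact matches lie in transcripts of AC127331.2 for both hairpins and of Gm19587 for shArf1-2. Arf1 was at 328, 316 and 328 FPKM (a read count scaled to gene length and library total) with shlucif, at 130, 128 and 127 with shArf1-1 and at 166, 157 and 171 with shArf1-2. All 6 Arf1-deficient libraries were thus below all control libraries, and shArf1-1 lowered Arf1 further than shArf1-2.

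The libraries held between 11182479 and 15594615 counts. Of 12 neuronal and neuroblastoma marker genes, 9 were higher in Arf1-deficient cells and 1 was lower, and their summed level was between 821 and 838 FPKM with shlucif and between 1180 and 1350 FPKM in Arf1-deficient cells. Macrophage genes were abundant in the control libraries. Their 15 markers summed to between 189 and 226 FPKM with shlucif and to between 0.735 and 1.20 FPKM in the Arf1-deficient libraries, where 12 fell, 0 rose and 7 were at 0 in every library (Aif1, Itgam, Ctss, C1qa, C1qb, Spi1 and Cx3cr1). The sums of the other marker lists were small and also lower in every Arf1-deficient library. Fibroblast markers (8 genes, 2 lower, 4 too low to test) went from between 6.96 and 7.19 FPKM to between 2.20 and 3.62 FPKM. Endothelial markers (6 genes, 2 lower, 3 too low to test) went from between 4.39 and 4.79 to between 1.95 and 2.86 FPKM. Astrocyte or oligodendrocyte markers (8 genes, 2 lower, 5 too low to test) went from between 5.36 and 5.43 to between 3.75 and 4.54 FPKM. Most of each sum with shlucif came from 1 gene, Pdgfrb (5.22 FPKM), Pecam1 (3.40 FPKM) and Mbp (4.41 FPKM) in turn. None of the genes in these lists was higher by the test described below. The part of the marker genes in the results was not tested. In bulk RNA, fewer cells of a type and less RNA per cell cannot be told apart.

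As many guidance genes rose as fell in Arf1-deficient cells. Of the 10 rises of at least 2-fold, 8 were in the 4 ligand-receptor families. Counts were high enough to test 128 of the 174 members. Tested with edgeR (quasi-likelihood, Benjamini-Hochberg adjustment over 12448 genes) at an adjusted p under 0.05, 42 of the 128 were higher (32.8%, against 31.6% of all genes tested) and 42 were lower (32.8%, against 32.9%). These shares are close to those of all genes. The median log2 fold change of the tested members was -0.03, that of all genes 0.00, and the median size of the change without its sign was 0.42 for the members and 0.37 for all genes. Libraries of the Arf1-deficient and control groups did not overlap for 75 of the 128 members (58.6%, against 58.1% of all genes).

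A rise to at least 2-fold was seen in 10 members (7.81%, against 4.68% of all genes tested) and a fall of at least 2-fold in 12 (9.38%, against 9.33%). Of the 10, 8 belonged to the 4 cue and receptor families (18.6% of the 43 tested there). The remaining 2 were among the 85 tested members of all other classes (2.35%), which include further ligands and receptors. The 10 were Nrp1, Slit3, Plxna4, Slit2, Sema6d, Unc5c, Ntn3 and Efnb3 in the families, with Ablim1 and Wnt5b, a Wnt ligand, outside them. The call of Efnb3 was lost under several settings, given below. Of the 12 that fell this far, 3 were in the families (Plxna2, Ntn1 and Efna1), 6.98% of the 43 tested there. The other 9, 10.6% of the 85, were Rac2, Met, Plcg2, Myl9, Ablim3, Rras, Ssh1, Nfatc2 and Ssh3. Over all genes tested the share was 9.33%. Nfatc2 and Ssh3 are named here because their values were seen. A further 46 members were too low to test. None of them exceeded 18 counts in a library, and 13 were at 0 in all 9 libraries, where a count of 0 allows up to 3 counts.

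**Figure D1:**
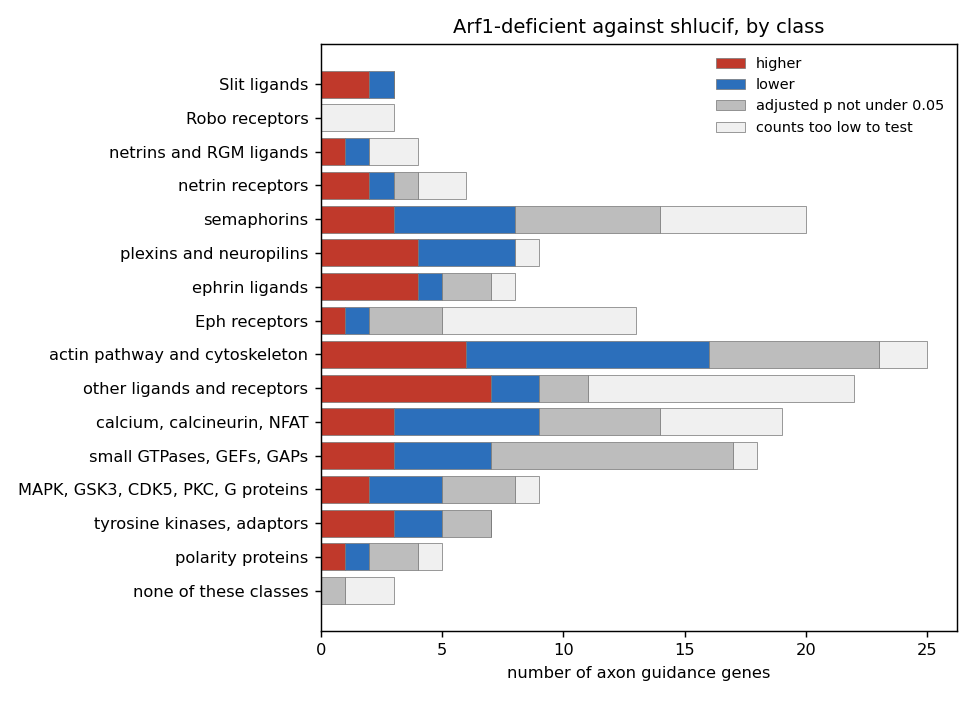
Bars give the number of axon guidance genes in each class, split into those higher, those lower and those without an adjusted p under 0.05 in Arf1-deficient cells against shlucif, and those with counts too low to test. All 3 Robo receptors and 8 of 13 Eph receptors were too low to test. All 8 tested plexins and neuropilins passed the threshold, 4 in each direction, against 31.6% higher and 32.9% lower among all genes tested. Plxna3, one of the 4 lower, had libraries that overlapped the controls, did not pass with shArf1-2 alone and lost its pooled call under several settings.

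Slit2 and Slit3 rose, beside Robo receptors that were too low to test. Slits are large secreted proteins that repel axons by binding Robo receptors at the cell surface. Slit3 was at 13.1, 12 and 10.4 FPKM with shlucif, at 57.9, 66.2 and 54.6 with shArf1-1 and at 60.1, 57.8 and 58.6 with shArf1-2. Every Arf1-deficient library was above every control library, and the 2 hairpins gave like levels. The log2 fold change of Slit3 was 2.26 (SE, the standard error, 0.08, adjusted p = 2.06e-14), with a difference between the hairpins of -0.03 (SE 0.07, adjusted p = 0.810).

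Slit2 was lower in level and moved the same way. It stood at 1.86, 1.93 and 1.86 FPKM with shlucif, at 5.11, 5.47 and 5.59 with shArf1-1 and at 5.30, 4.88 and 5.23 with shArf1-2, again without overlap (log2 fold change 1.42, SE 0.06, adjusted p = 5.47e-13). Slit1 went the other way by a small amount. It was at 4.45, 3.63 and 3.74 FPKM with shlucif, at 3.08, 3.67 and 2.82 with shArf1-1 and at 3.84, 3.54 and 3.49 with shArf1-2, and these groups overlapped. Its log2 fold change was -0.28 (adjusted p = 0.0300), and the call rested on single libraries: without shlucif replicate 1, shArf1-1 replicate 1 or shArf1-1 replicate 3 its adjusted p was between 0.0556 and 0.224, and with library size scaling or limma on log2 FPKM it was between 0.0894 and 0.114.

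The Robo receptors were close to absent in every library. Robo1 had between 0 and 4 counts in a library, Robo2 between 1 and 11, and Robo3, a family member of commissural axons, between 1 and 11. Summed per length, the Slits made up 17.7 ± 1.67 FPKM (SD, n = 3) with shlucif, 68.2 ± 6.39 with shArf1-1 and 67.6 ± 1.51 with shArf1-2, while the 3 Robo genes together made up 0.130 ± 0.0470, 0.0561 ± 0.0224 and 0.0763 ± 0.0295 FPKM. All shArf1-1 sums for Robo (at most 0.0811 FPKM) were below all shlucif sums (at least 0.0934 FPKM), while those of shArf1-2 reached 0.0956 FPKM, and none of the 3 genes had enough counts for a test.

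Among netrins, Ntn3 rose and Ntn1 fell, at different levels. Netrins are secreted relatives of laminin that attract axons through Dcc and repel them through Unc5 receptors. Ntn3 was at 3.17, 2.62 and 2.38 FPKM with shlucif, at 7.96, 6.83 and 6.07 with shArf1-1 and at 6.84, 6.48 and 6.88 with shArf1-2, without overlap (log2 fold change 1.26, SE 0.11, adjusted p = 7.89e-09). Ntn1, the founding member, was far lower throughout. It had 12, 21 and 19 counts with shlucif, 7, 1 and 3 with shArf1-1 and 3, 2 and 4 with shArf1-2, so that its log2 fold change of -2.40 (SE 0.44, adjusted p = 1.03e-04) rested on few reads although the groups did not overlap. Ntn4 was at 0 in every library, and Rgma, a ligand of neogenin, had at most 7 counts.

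Of the netrin receptors, Unc5c rose, Neo1 fell and the attractive receptor Dcc had at most 1 count in a library. Unc5c was at 3.26, 3.62 and 3.44 FPKM with shlucif, at 7.88, 8.91 and 9.38 with shArf1-1 and at 8.74, 8.52 and 8.56 with shArf1-2. Its groups stood apart, at log2 fold change 1.27 (SE 0.06, adjusted p = 2.46e-12). Neo1, which encodes neogenin, a receptor for netrins and for repulsive guidance molecules, was at 44.8, 45.1 and 42.7 FPKM with shlucif, at 24.1, 24.2 and 25.9 with shArf1-1 and at 27.2, 27.5 and 26.6 with shArf1-2. Its log2 fold change was -0.83 (SE 0.05, adjusted p = 3.85e-11), and again no library of one group reached the range of the other.

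The most abundant netrin receptor hardly moved. Unc5b was at 66.5 ± 2.94 FPKM with shlucif, 69.0 ± 3.71 with shArf1-1 and 76.2 ± 1.51 with shArf1-2 (SD, n = 3 each), and its log2 fold change of 0.06 (SE 0.06, adjusted p = 0.331) missed the threshold. Unc5a, next in level after Neo1 in the control cells, was at 21.1, 17.4 and 18.2 FPKM with shlucif and between 21.1 and 24.7 in Arf1-deficient cells, so that the groups met. Its small rise (log2 fold change 0.20, adjusted p = 0.0191) was lost without shlucif replicate 2 (adjusted p = 0.151) or shlucif replicate 3 (adjusted p = 0.0865). Unc5d had at most 2 counts. Summed per length, the netrin receptors were at 133 ± 5.09 FPKM with shlucif, 126 ± 4.43 with shArf1-1 and 134 ± 1.73 with shArf1-2, while the netrin and Rgma ligands were at 2.97 ± 0.318, 7.0 ± 0.980 and 6.78 ± 0.223 FPKM.

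**Figure D2:**
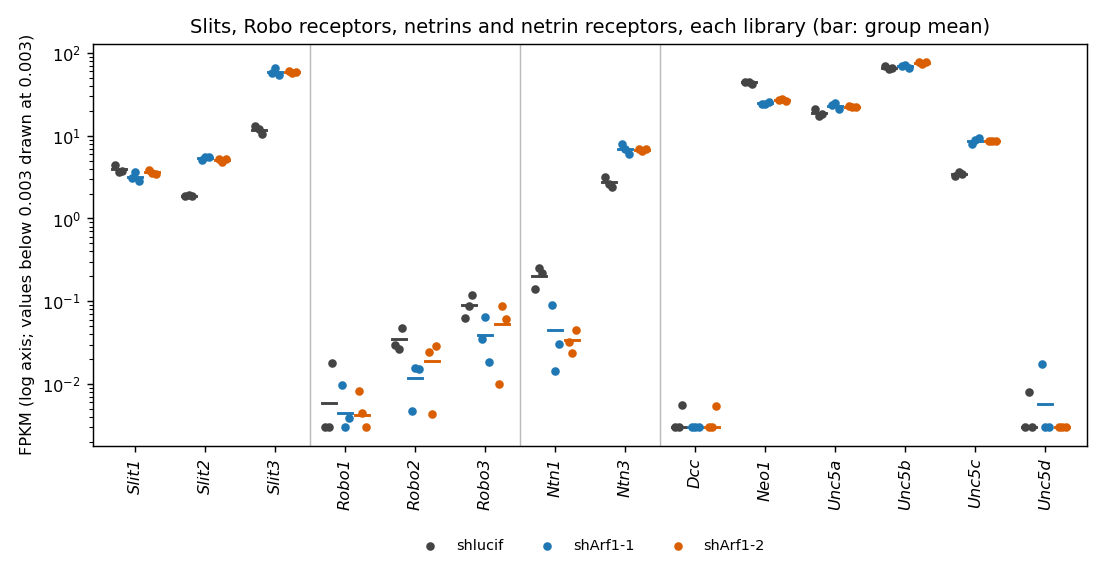
Points are the FPKM of each library on a log axis and short bars the group means for Slits, Robo receptors, netrins and netrin receptors, with values below 0.003 drawn at 0.003. Slit2, Slit3, Ntn3 and Unc5c lie higher in every Arf1-deficient library than in any control library, Neo1 lies lower, and Robo1, Robo2, Robo3, Dcc and Unc5d stay near the bottom of the axis.

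Neuropilin-1 and plexin A4, which can act together as a receptor for class 3 semaphorins, both rose. Nrp1 was at 2.39, 2.17 and 1.89 FPKM with shlucif, at 11.3, 11.9 and 12.9 with shArf1-1 and at 10, 9.01 and 9.82 with shArf1-2. Its log2 fold change was 2.27 (SE 0.12, adjusted p = 4.64e-10). The 3 groups did not overlap with each other, and the rise was smaller with shArf1-2 than with shArf1-1 (2.09 against 2.43, difference -0.34, adjusted p = 8.52e-04).

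Plxna4 was at 2.42, 2.15 and 2.21 FPKM with shlucif, at 8.98, 10.2 and 9.13 with shArf1-1 and at 7.63, 6.87 and 7.59 with shArf1-2 (log2 fold change 1.83, SE 0.13, adjusted p = 1.91e-08). As for Nrp1, shArf1-2 gave the smaller rise (1.63 against 2.01, difference -0.37, adjusted p = 1.48e-04). Plxnb1, a receptor for Sema4d, rose from between 2.69 and 2.98 FPKM to between 4.65 and 5.79 FPKM (log2 fold change 0.83, adjusted p = 5.57e-08). Plxnc1, the receptor of Sema7a, rose from between 6.29 and 6.49 FPKM to between 8.0 and 9.27 FPKM (log2 fold change 0.40, adjusted p = 2.66e-05).

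The plexins with the highest levels in control cells fell. Plxnb2 was at 77.3, 75.3 and 72.0 FPKM with shlucif, at 45.2, 51.8 and 44.7 with shArf1-1 and at 50.6, 49.1 and 49.6 with shArf1-2 (log2 fold change -0.69, SE 0.05, adjusted p = 1.24e-09). Plxna1, a partner of neuropilins, fell from between 31.1 and 32.1 FPKM to between 21.5 and 27.3 FPKM (log2 fold change -0.41, adjusted p = 1.96e-05). Plxna3 was lower only with shArf1-1 beyond the threshold. It was at 23 ± 0.546 FPKM with shlucif, 18.3 ± 1.78 with shArf1-1 and 22.4 ± 1.40 with shArf1-2, and the hairpins differed by 0.28 on the log2 scale (adjusted p = 0.00159). Its pooled call (log2 fold change -0.24, adjusted p = 0.0218) was lost without shlucif replicate 1 (adjusted p = 0.0888) or shlucif replicate 3 (adjusted p = 0.0502), and with library size scaling or limma on log2 FPKM (adjusted p between 0.0997 and 0.111).

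Summed per length, plexins and Nrp1 were at 143 ± 4.13 FPKM with shlucif, 124 ± 8.71 with shArf1-1 and 130 ± 1.98 with shArf1-2. Above Plxna2 and Plxnb3, which had few counts, the order of levels in control cells was Plxnb2, Plxna1, Plxna3, Plxnc1, Plxnb1, Plxna4 and Nrp1, of which the last 2 did not differ beyond their spread (2.26 ± 0.142 and 2.15 ± 0.249 FPKM). In Arf1-deficient cells Nrp1 stood above Plxnb1 in every library. Plxnb3 was too low to test, with at most 11 counts.

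**Figure D3:**
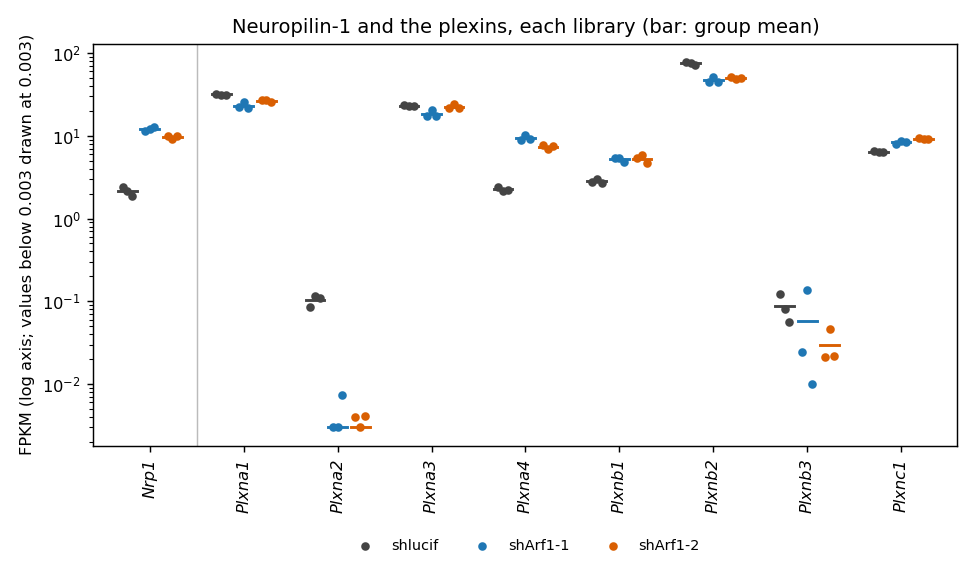
Points are the FPKM of each library on a log axis and short bars the group means for Nrp1 and the 8 plexins, with values below 0.003 drawn at 0.003. Nrp1 and Plxna4 are the 2 with the largest rises, and the abundant Plxnb2 and Plxna1 are lower in all Arf1-deficient libraries.

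Semaphorins, the ligands of these receptors, changed in both directions and mostly by less than 2-fold. Of 20 members, 14 were tested, 3 rose, 5 fell and 6 did not pass the test (21.4% and 35.7% higher and lower, against 31.6% and 32.9% of all genes). Their summed level was 91.5 ± 0.752 FPKM with shlucif, 81.8 ± 2.42 with shArf1-1 and 87.6 ± 1.95 with shArf1-2. The secreted class 3 semaphorins ranged widely. In control cells Sema3f was at 6.30 FPKM, Sema3g at 3.04 FPKM and Sema3b at 0.580 FPKM, while Sema3a and Sema3d were at 0 in every library, Sema3c had at most 3 counts and Sema3e at most 12.

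Sema6d, a transmembrane ligand of plexin A receptors, had the largest rise. It was at 2.40, 2.51 and 2.49 FPKM with shlucif, at 6.91, 6.61 and 6.74 with shArf1-1 and at 5.61, 5.99 and 5.87 with shArf1-2, without overlap between any 2 of the groups (log2 fold change 1.29, SE 0.08, adjusted p = 1.61e-10). Sema6a, of the same class, rose from between 2.05 and 2.66 FPKM to between 2.82 and 4.08 FPKM (log2 fold change 0.47, adjusted p = 0.00232). Sema4f rose from between 0.610 and 0.768 FPKM to between 0.800 and 1.59 FPKM (log2 fold change 0.70, adjusted p = 0.00566).

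Sema6c and Sema3f showed the largest falls of the class. Sema6c, also of class 6, was at 2.44, 2.64 and 2.08 FPKM with shlucif, at 1.16, 1.11 and 0.962 with shArf1-1 and at 1.64, 1.70 and 1.70 with shArf1-2 (log2 fold change -0.85, SE 0.17, adjusted p = 1.98e-04). Sema3f, a secreted repellent that binds neuropilin-2, was at 6.22, 6.77 and 5.90 FPKM with shlucif, at 3.04, 4.16 and 3.47 with shArf1-1 and at 4.23, 3.89 and 3.94 with shArf1-2 (log2 fold change -0.80, SE 0.10, adjusted p = 8.38e-07). The groups did not overlap for either gene.

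Sema4d, the most abundant semaphorin and the ligand of plexin B1, fell from between 33.9 and 36 FPKM to between 23.6 and 26.5 FPKM (log2 fold change -0.53, SE 0.05, adjusted p = 1.64e-08). Sema4a fell by 0.52 and Sema4g by 0.35 on the log2 scale (adjusted p = 0.00195 and 0.00601). Sema4c, the second most abundant, was at 17.0 FPKM with shlucif, 20 with shArf1-1 and 18.1 with shArf1-2 (log2 fold change 0.10, adjusted p = 0.215). It passed the threshold with library size scaling and with limma on log2 FPKM (adjusted p between 0.0381 and 0.0434). Sema3b, Sema3g, Sema4b, Sema6b and Sema7a had pooled log2 fold changes between -0.20 and 0.23, none past the threshold. Sema6b passed it, as lower, when the hairpin contrasts were averaged (adjusted p = 0.0311).

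Efna5 and Efna2 rose and Efna1 fell among the ephrin ligands, while the Eph receptors were barely expressed. Ephrins are membrane-bound cues, tethered by a lipid anchor in class A and by a transmembrane segment in class B, that signal on contact with Eph receptor tyrosine kinases of a neighbouring cell. Of 8 ligands, 7 were tested, 4 rose and 1 fell (57.1% and 14.3%, against 31.6% and 32.9% of all genes), with a median log2 fold change of 0.73, and the calls of Efnb2 and Efnb3 among the 4 depended on single libraries. Efna5, the most abundant, was at 12.1, 13.8 and 11.6 FPKM with shlucif, at 20.6, 21.4 and 21.3 with shArf1-1 and at 23.6, 22.3 and 20.2 with shArf1-2, without overlap (log2 fold change 0.73, SE 0.07, adjusted p = 3.13e-08).

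Efna2 rose from between 1.65 and 2.38 FPKM to between 2.88 and 4.51 FPKM (log2 fold change 0.85, adjusted p = 4.17e-04). Efnb2, a marker of arteries among other tissues, rose from between 20 and 31 counts to between 34 and 73 (log2 fold change 0.97, adjusted p = 0.00950), and lost the call without shlucif replicate 2 (adjusted p = 0.0596). Efnb3 had between 4 and 27 counts and a log2 fold change of 1.14 (adjusted p = 0.0486). Its call was the least secure: it was lost with DESeq2, without the low-count filter and with limma on log2 FPKM (adjusted p between 0.0502 and 0.0662), and without shlucif replicate 1 or 3, shArf1-1 replicate 2 or 3, or shArf1-2 replicate 2 (adjusted p between 0.0751 and 0.188).

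Efna1 fell in every library. It was at 6.30, 4.17 and 6.21 FPKM with shlucif, at 1.62, 1.95 and 0.701 with shArf1-1 and at 2.42, 3.25 and 1.97 with shArf1-2 (log2 fold change -1.56, SE 0.30, adjusted p = 4.27e-04). Efna3 was lower with shArf1-1 (3.57 ± 0.277 against 2.08 ± 0.214 FPKM, log2 fold change -0.82, adjusted p = 1.11e-04) and was at 3.36 ± 0.719 FPKM with shArf1-2 (log2 fold change -0.16, adjusted p = 0.415). The hairpins differed in Efna3 by 0.66 on the log2 scale (adjusted p = 0.00912), and its pooled value (-0.45, adjusted p = 0.0560) passed the threshold without shArf1-2 replicate 2 (adjusted p = 0.0396) or shArf1-2 replicate 3 (adjusted p = 0.00525) and when the hairpin contrasts were averaged (adjusted p = 0.00347). Efna4 had between 9 and 25 counts and did not pass (log2 fold change 0.17, adjusted p = 0.657). Efnb1 had between 1 and 5 counts with shlucif and 0 in all Arf1-deficient libraries, too few to test.

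The 13 Eph receptors summed to 2.46 ± 0.218 FPKM with shlucif, 2.18 ± 0.250 with shArf1-1 and 2.47 ± 0.147 with shArf1-2. None had a group mean of 1 FPKM, and 8 were not tested, with at most 10 counts each. Epha8 rose (log2 fold change 0.54, adjusted p = 0.0378) and Epha1 fell (-0.91, adjusted p = 0.0437), both with overlapping libraries. Neither call was secure. Epha8 lost it without shlucif replicate 2 or 3, shArf1-1 replicate 1 or 2, or shArf1-2 replicate 1 (adjusted p between 0.0604 and 0.130) and without the low-count filter (adjusted p = 0.0507). Epha1 lost it without shlucif replicate 2 or 3, shArf1-1 replicate 1 or 3, or shArf1-2 replicate 1 or 2 (adjusted p between 0.0657 and 0.153), and with library size scaling, DESeq2 or no filter (adjusted p between 0.0583 and 0.0710).

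Epha5, Ephb3 and Ephb4 did not pass in the pooled comparison (adjusted p = 0.0731, 0.0636 and 0.222). Epha5 passed without shlucif replicate 2 (adjusted p = 0.0416) or shArf1-2 replicate 1 (adjusted p = 0.0485). Ephb3, lower with shArf1-1 (log2 fold change -1.01, adjusted p = 0.00233), passed without shArf1-2 replicate 1 (adjusted p = 0.0396) or shArf1-2 replicate 3 (adjusted p = 0.0306), with at least 10 counts in every library (adjusted p = 0.0446) and when the hairpin contrasts were averaged (adjusted p = 0.0157).

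**Figure D4:**
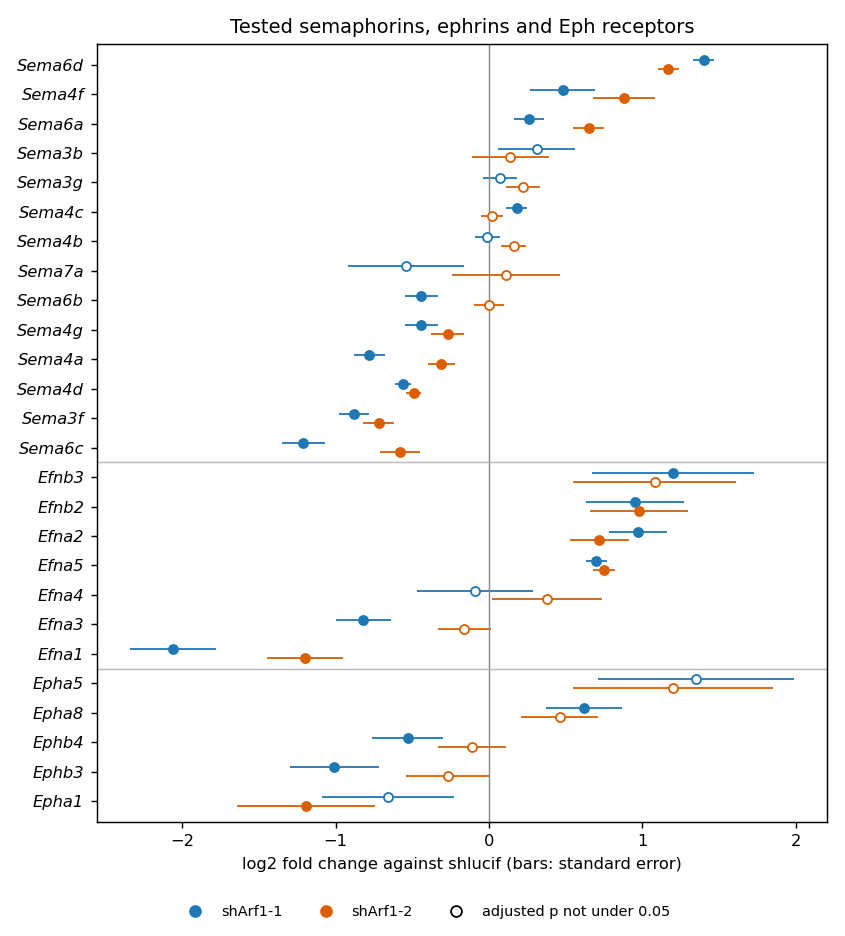
Points are log2 fold changes against shlucif with each hairpin and bars their standard errors, for the tested semaphorins (top), ephrins (middle) and Eph receptors (bottom), with open points where the adjusted p was not under 0.05. Among semaphorins Sema6d lies farthest right with both hairpins, while Sema6c lies farthest left with shArf1-1 and Sema3f with shArf1-2, Efna5 has nearly the same value with both hairpins, and Efna1 lies farther left with shArf1-1 than with shArf1-2.

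The promoter sequences of 4 members are shown as examples of those that moved in opposite directions, 2 risen and 2 fallen. They are the windows of 250 bases before the start annotated in RefSeq on GRCm38.p6. They were taken from the family members with the lowest adjusted p in each direction whose window holds no GENCODE exon (15 of 24 changed family members with an entry). In GENCODE the Nrp1 gene starts further upstream, at 128358604 on chromosome 8, so the Nrp1 window lies inside that gene there, outside its exons. The letters GGGCGG, the core of a GC box, were searched on both strands and are in capitals, read as CCGCCC where they lie on the other strand. Sema6d and Nrp1 rose, and Neo1 and Plxnb2 fell.
Sema6d, plus strand, chr2:124089719-124089968: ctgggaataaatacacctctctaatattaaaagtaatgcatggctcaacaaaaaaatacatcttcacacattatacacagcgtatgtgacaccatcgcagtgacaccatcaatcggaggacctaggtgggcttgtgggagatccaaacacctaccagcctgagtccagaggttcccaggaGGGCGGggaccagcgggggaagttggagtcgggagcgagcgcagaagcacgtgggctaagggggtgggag
Nrp1, plus strand, chr8:128358823-128359072: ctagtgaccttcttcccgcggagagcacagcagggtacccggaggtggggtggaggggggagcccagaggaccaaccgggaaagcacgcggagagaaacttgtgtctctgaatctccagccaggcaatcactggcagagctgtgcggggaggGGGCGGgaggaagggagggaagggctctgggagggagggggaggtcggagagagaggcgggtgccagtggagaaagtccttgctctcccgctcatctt
Neo1, minus strand, chr9:59036442-59036691: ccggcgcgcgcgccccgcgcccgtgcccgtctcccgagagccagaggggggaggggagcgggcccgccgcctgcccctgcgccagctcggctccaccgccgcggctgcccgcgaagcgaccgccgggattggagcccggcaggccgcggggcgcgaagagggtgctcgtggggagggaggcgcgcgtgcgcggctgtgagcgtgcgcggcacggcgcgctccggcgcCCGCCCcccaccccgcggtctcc
Plxnb2, minus strand, chr15:89180789-89181038: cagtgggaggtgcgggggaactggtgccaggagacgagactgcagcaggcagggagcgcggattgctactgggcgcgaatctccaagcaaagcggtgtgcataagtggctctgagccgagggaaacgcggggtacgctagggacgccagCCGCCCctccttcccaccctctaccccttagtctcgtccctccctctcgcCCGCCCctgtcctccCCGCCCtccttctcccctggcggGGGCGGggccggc

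GGGCGG occurred 1 time in each of the windows of Sema6d, Nrp1 and Neo1 and 4 times in that of Plxnb2. A promoter window was found for 135 of the 174 members, and 99 of these held GGGCGG (73.3%), against 32.9% of all 27018 genes with a window. The 135 include 37 members too low to test, of which 18 held it (48.6%). Among tested members, GGGCGG was in 29 of 34 that rose (85.3%), 25 of 31 that fell (80.6%) and 27 of 33 that did not pass (81.8%). Over the 9914 tested genes with a window the share was 60.1%. The median GC content was 69.4% in the windows of members that rose, 66.0% in those that fell and 60.0% over tested genes.

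Changes in the intracellular members ranged from small, as in Cdc42, to large, as in Rras. Of the 18 small GTPases and their regulators, 17 were tested, 3 rose and 4 fell (17.6% and 23.5%, both below the 31.6% and 32.9% of all genes). Cdc42, the GTPase of filopodia and the highest of all members, was at 161 ± 9.26 FPKM with shlucif, 173 ± 21.9 with shArf1-1 and 171 ± 5.22 with shArf1-2 (log2 fold change 0.04, adjusted p = 0.631). Rac1, which drives lamellipodia, rose by a log2 fold change of 0.24 (adjusted p = 3.29e-04), and Hras by 0.28 (adjusted p = 0.00323). Rhoa, whose activity contracts the growth cone, fell by 0.33 on the log2 scale (adjusted p = 1.09e-05).

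Rras, a Ras-family GTPase that plexins inactivate, fell further. It was at 85.7, 102 and 97.1 FPKM with shlucif, at 27.3, 24.8 and 25.7 with shArf1-1 and at 39.4, 36.3 and 38.3 with shArf1-2. All 3 groups stood apart, and the pooled log2 fold change was -1.63 (SE 0.14, adjusted p = 8.04e-07). The fall was deeper with shArf1-1 (-1.92) than with shArf1-2 (-1.39), a difference of 0.53 (adjusted p = 1.32e-05).

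Among the 25 kinases, phosphatases and cytoskeletal proteins of the actin pathway, 23 were tested, 6 rose and 10 fell (26.1% and 43.5%, against 31.6% and 32.9% of all genes). The actin-binding LIM proteins went opposite ways. Ablim1 was at 4.41, 4.39 and 4.14 FPKM with shlucif, at 12, 12 and 12.6 with shArf1-1 and at 11.7, 11.7 and 10.8 with shArf1-2 (log2 fold change 1.39, SE 0.06, adjusted p = 7.21e-13). Ablim3 was at 8.52, 7.81 and 7.49 FPKM with shlucif, at 1.92, 1.89 and 1.56 with shArf1-1 and at 2.54, 2.16 and 2.35 with shArf1-2 (log2 fold change -2.0, SE 0.12, adjusted p = 2.73e-11). The groups did not overlap for either gene.

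Ssh1, a slingshot phosphatase that activates cofilin, fell from between 8.98 and 10.2 FPKM to between 3.07 and 3.88 FPKM (log2 fold change -1.55, SE 0.08, adjusted p = 2.11e-12), while its relative Ssh2 rose by a log2 fold change of 0.49 (adjusted p = 1.77e-04). Cofilin itself, Cfl1, the member next in level after Cdc42, was at 157 ± 2.60 FPKM with shlucif, 153 ± 2.11 with shArf1-1 and 140 ± 6.66 with shArf1-2. Its pooled log2 fold change of -0.16 (adjusted p = 0.0161) was lost without shlucif replicate 1 (adjusted p = 0.0732) and with library size scaling or limma on log2 FPKM (adjusted p between 0.0999 and 0.101). Myl9, a myosin regulatory light chain, fell from between 78 and 89 counts to between 6 and 33 (log2 fold change -2.01, SE 0.29, adjusted p = 6.66e-06), and Myl12a, another, fell by 0.76 on the log2 scale (adjusted p = 7.62e-04). Fes, a tyrosine kinase that acts below plexins, rose from between 2.22 and 2.36 FPKM to between 3.86 and 4.60 FPKM (log2 fold change 0.79, adjusted p = 1.20e-06). Pak1, a kinase activated by Rac1 and Cdc42, did not pass (log2 fold change -0.09, adjusted p = 0.405).

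Signalling enzymes shared by many pathways changed in both directions. Of 7 tyrosine kinases, phosphatases and adaptors, all tested, 3 rose and 2 fell (42.9% and 28.6%, against 31.6% and 32.9% of all genes), and of 9 MAP kinase, PKC and G protein members 8 were tested, 2 rose and 3 fell (25.0% and 37.5%). Ptpn11, the phosphatase SHP2, rose from between 26.8 and 29.1 FPKM to between 44.1 and 48.6 FPKM (log2 fold change 0.67, SE 0.05, adjusted p = 1.88e-09), and the tyrosine kinase Src by a log2 fold change of 0.44 (adjusted p = 3.38e-05). Fyn, of the same kinase family, fell by 0.45 and the adaptor Nck1 by 0.41 on the log2 scale (adjusted p = 1.95e-06 and 1.40e-04). Ptk2, focal adhesion kinase, rose by 0.14 (adjusted p = 0.0233), a call lost without shlucif replicate 2 (adjusted p = 0.134). Of the MAP kinase and G protein members, Mapk3 (ERK1) fell from 87.7 ± 2.13 FPKM to 55.8 ± 4.02 with shArf1-1 and 55.6 ± 2.19 with shArf1-2, and Gnai2, an inhibitory G protein subunit, from 127 ± 5.31 to 82.0 ± 4.34 and 87.1 ± 1.43 FPKM (log2 fold changes -0.72 and -0.65, adjusted p = 1.24e-09 and 1.41e-09). Gnai3 fell by 0.32 on the log2 scale, while Prkca, a protein kinase C, rose by 0.29 (adjusted p = 3.05e-05 and 0.00455).

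Of the 19 calcium, calcineurin and NFAT genes, 14 were tested, 3 rose and 6 fell (21.4% and 42.9%, against 31.6% and 32.9% of all genes). Camk2a and Camk2d, isoforms of the calcium-dependent kinase CaMKII, moved apart, with log2 fold changes of 0.48 and -0.66 (adjusted p = 0.00347 and 3.92e-08). So did the calcineurin genes Ppp3r1, the regulatory subunit, and Ppp3cc, a catalytic subunit, with 0.45 and -0.69 (adjusted p = 1.13e-05 and 0.00143). Nfatc3, a transcription factor that calcineurin activates, rose by 0.22 (adjusted p = 0.00385).

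Of the 22 other ligands, receptors and adhesion proteins, 11 were tested, 7 rose and 2 fell (63.6% and 18.2%, against 31.6% and 32.9% of all genes). Fzd3, a Wnt receptor used in axon tract formation, rose from between 2.09 and 2.97 FPKM to between 3.66 and 4.87 FPKM (log2 fold change 0.64, adjusted p = 2.48e-05). Wnt5b, a Wnt ligand, rose from between 13 and 18 counts to between 25 and 45 (log2 fold change 1.17, adjusted p = 0.00103). Ntng2, a membrane-anchored netrin-G protein, rose by a log2 fold change of 0.60 (adjusted p = 6.19e-04). L1cam, an adhesion molecule of axons and among the 5 highest members by the mean over the 3 groups, fell from 83.0 ± 1.49 FPKM to 63.0 ± 3.37 with shArf1-1 and 70.9 ± 1.24 with shArf1-2 (log2 fold change -0.37, adjusted p = 7.03e-06). Sonic hedgehog (Shh), Bmp7 and the chemokine Cxcl12 were at 0 in every library. Of 5 polarity genes, 4 were tested, 1 rose and 1 fell (25.0% each). Prkcz, an atypical protein kinase C, rose by 0.35 and Pard6a, its partner, fell by 0.51 on the log2 scale (adjusted p = 5.53e-04 and 1.15e-04).

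The deepest falls, in Rac2, Plcg2, Met and Plxna2, lay in the same libraries as the fall of the macrophage markers. Rac2, a small GTPase of leukocytes, had 312, 278 and 288 counts with shlucif, 3, 5 and 13 with shArf1-1 and 6, 4 and 8 with shArf1-2 (log2 fold change -5.53, SE 0.20, adjusted p = 2.65e-14). Plcg2, a phospholipase of immune receptor signalling, was at 9.18, 8.12 and 6.88 FPKM with shlucif, at 1.17, 1.58 and 1.13 with shArf1-1 and at 1.57, 1.61 and 1.59 with shArf1-2 (log2 fold change -2.55, SE 0.12, adjusted p = 1.95e-12). Both fell in every library, Rac2 almost to the floor of 3 counts and Plcg2 to a level that was still well above it.

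Met, the hepatocyte growth factor receptor, had 35, 47 and 35 counts with shlucif and 0 in all 6 Arf1-deficient libraries, at least 13.4-fold lower against a floor of 3 counts per library (adjusted p = 3.62e-08). Plxna2, the plexin with the lowest level among those tested, had 20, 27 and 26 counts with shlucif and between 0 and 2 in Arf1-deficient libraries, at least 8.37-fold lower (adjusted p = 1.05e-07). Cxcr4, a chemokine receptor of leukocytes and migrating neurons, had 7, 9 and 4 counts with shlucif and 0 in every Arf1-deficient library, too few to test, and is named because its values were seen. In the same libraries the 15 macrophage markers went from between 189 and 226 FPKM to at most 1.20 FPKM. Their part in the falls of Rac2, Plcg2, Met, Plxna2 and Cxcr4 was not tested. Likewise 9 of the 12 neuronal markers were higher in the libraries in which Slit3, Slit2, Nrp1 and Plxna4 were higher, and their part in those rises was not tested.

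**Figure D5:**
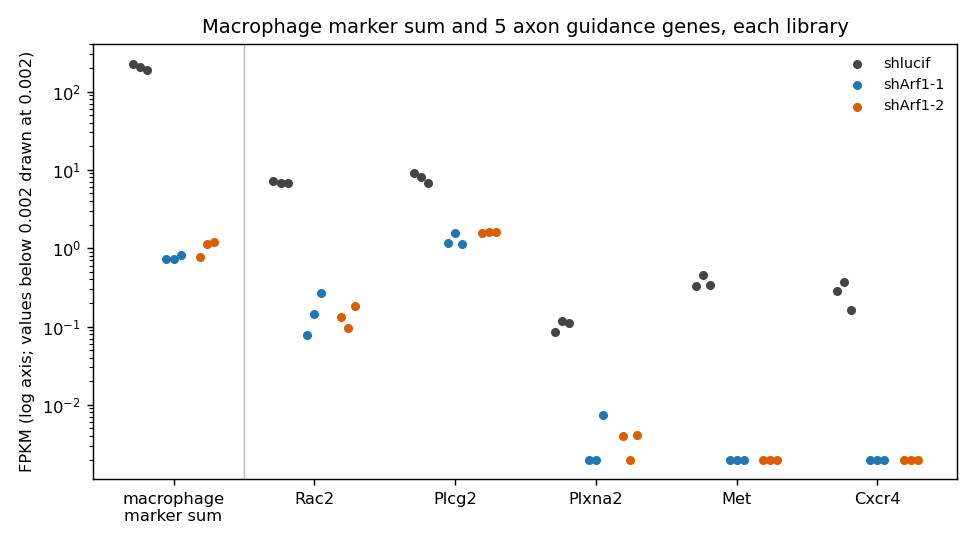
Points are single libraries on a log axis, with values below 0.002 drawn at 0.002, for the summed FPKM of 15 macrophage markers (left) and for 5 axon guidance genes. The marker sum is between 189 and 226 FPKM in control libraries and between 0.735 and 1.20 FPKM in Arf1-deficient libraries, and all 5 genes are lower in every Arf1-deficient library.

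The hairpins gave the same direction wherever both passed the threshold. With shArf1-1, 42 of the 128 members were higher (32.8%, against 33.1% of all genes tested) and 53 lower (41.4%, against 34.4%). With shArf1-2, 42 were higher (32.8%, against 30.9%) and 42 lower (32.8%, against 32.6%). Both comparisons use the same control libraries. In both, 38 members were higher and 36 lower, 21 passed with shArf1-1 alone, 10 with shArf1-2 alone, and 0 passed in opposite directions. The same counts over all tested genes are not given here, so this agreement does not set the members apart from other genes.

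Compared directly, the hairpins differed in 24 of the 128 members (18.8%, against 14.4% of all genes tested). Of these, 17 were at a higher and 7 at a lower level under shArf1-2. Over all 12448 genes tested, 869 were higher and 929 lower. shArf1-2 was the hairpin that left more Arf1 (log2 difference in Arf1 0.34, adjusted p = 1.16e-05), and a link to these differences was not tested. The largest positive differences were in Efna3 (0.66), Sema6c (0.63), Rras (0.53), Sema4a (0.47) and Sema6b (0.44). For Sema6c, Rras and Sema4a, which fell with both hairpins, the fall was smaller with shArf1-2. Sema6b was at 4.61 FPKM with shArf1-1 and at 6.28 FPKM with shArf1-2, against 5.97 FPKM with shlucif. The largest negative differences were in Myl12a (-0.54), Plxna4 (-0.37), Nrp1 (-0.34), Gsk3b (-0.28) and Pak1 (-0.26). Gsk3b, a kinase that acts on microtubule-binding proteins, was higher with shArf1-1 (log2 fold change 0.21, adjusted p = 0.00110) and not changed beyond the threshold with shArf1-2 (-0.07, adjusted p = 0.282). Slit2, Slit3, Ntn3, Unc5c and Neo1 did not differ between the hairpins past the threshold, with differences between -0.09 and 0.11 and standard errors between 0.05 and 0.10.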

How the data were processed

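RNA-seq of 9 N2a libraries, 3 per hairpin, was analysed from 1 table in which the authors deposited a raw read count and an FPKM value per gene and library. The deposited FPKM equals the count divided by the listed length and the library total (largest relative gap 1.9e-07). The submitters' processing notes list mm10; aligner, counting tool and strand setting are not given in the sources used here. Columns numbered 2 after the gene name were taken as shArf1-2, because a heatmap of the study uses the same column names. The members, their classes and all lists were chosen with earlier results of these data known.

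Counts were analysed in R 4.3.3 with edgeR 4.0.16 (filterByExpr, TMM, robust glmQLFit and glmQLFTest), pooling both hairpins against shlucif, and in a second fit of 3 groups for each hairpin and their difference. Adjusted p-values (Benjamini-Hochberg, two-sided) cover all 12448 tested genes, with a threshold of 0.05. On simulated counts (12316 genes tested), 191 of 196 changed genes were recovered in the pooled comparison and 6 others called. The simulation had the same spread for every gene, few changed genes, changes of at least 2-fold and no hairpin difference. It therefore does not measure recovery of smaller changes or of hairpin differences. Alternatives were DESeq2 1.42.0, limma 3.58.1, other scaling and filters, a replicate block, leaving out each library, and including the Pik3 and Itg genes. Floors cover counting error only. Standard errors were derived from the log2 fold change and the quasi-likelihood test statistic, which takes in the spread between libraries. Named by rule were all tested members of the 4 families, in every other class the 3 largest rises and falls with at least 1 FPKM and no overlap, the 5 largest hairpin differences in each direction, the 5 highest members, and those at 3 counts or fewer in all libraries of 1 side and at least 20 on the other. Untested members and a few others are named after their values were seen. Coordinates are GENCODE M21 and RefSeq on GRCm38. Figures were drawn with matplotlib 3.10.9.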

Additional observations from a re-analysis of the deposited data

Results flagged for a closer look

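The change against shlucif differed between the 2 Arf1 hairpins in 24 axon guidance members, by edgeR's quasi-likelihood test of the difference with Benjamini-Hochberg adjustment over all tested genes. For 23 of the 24, the libraries of shArf1-1 and shArf1-2 did not overlap, and Pak1 was the exception. The 24 were selected by the test on these same libraries, so the lack of overlap adds no further support. Values are the log2 change with shArf1-2 minus that with shArf1-1. Among cues and receptors, the difference was 0.66 in Efna3, 0.63 in Sema6c, 0.47 in Sema4a, 0.44 in Sema6b, 0.38 in Sema6a, 0.28 in Plxna3, 0.19 in Plxna1, -0.23 in Sema6d, -0.34 in Nrp1 and -0.37 in Plxna4. Among GTPases and their regulators it was 0.53 in Rras, 0.37 in Rnd1, 0.34 in Arhgef12 and -0.22 in Nras. Among kinases, adaptors and cytoskeletal genes it was 0.41 in Pak6, 0.39 in Ablim3, 0.39 in Cdk5, 0.25 in Nck2, -0.26 in Pak1, -0.28 in Gsk3b and -0.54 in Myl12a. It was 0.40 in Pard6b, 0.37 in Ntng2 and 0.15 in L1cam. Of the 24, 9 had not passed the threshold in the pooled comparison. Single libraries far from the rest were not searched for, because each group holds 3 libraries.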

How the results depend on the processing

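The counts of members higher or lower, pooled or with each hairpin, and of members differing between hairpins stayed within 1.5 times their reported value under every alternative run. Pooled, 41 to 46 members were higher and 35 to 49 lower over the other settings. The median log2 fold change of the members changed sign with library size scaling (0.03 against -0.03), a setting under which the median of all genes was also higher, at 0.066. Leaving out single libraries gave 38 to 42 members higher and 37 to 44 lower in the pooled comparison, 37 to 43 and 47 to 53 with shArf1-1, 38 to 43 and 36 to 42 with shArf1-2, 16 to 29 differing between the hairpins and a median between -0.05 and -0.01. The replicate block left 42 higher and 42 lower. The numbers did not pair the libraries: deviations of same-numbered libraries correlated between -0.082 and 0.094 (mean 0.007). Including the Pik3 and Itg genes gave 45 higher and 46 lower. Of 68 named genes past the threshold, Arf1 among them, 59 kept their call in all settings that tested them, 9 lost it in some (Slit1, Unc5a, Plxna3, Efnb2, Efnb3, Epha1, Epha8, Ptk2 and Cfl1) and 0 turned. Of the genes below it, Cdc42 turned to -0.01 without shlucif replicate 1 (range over left-out libraries -0.01 to 0.07) and Sema7a to 0.00 without shArf1-1 replicate 3 (range -0.37 to 0.00). Robo, Dcc and most Eph receptors had too few counts to test.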
